A study of Danio rerio with 44 samples.

Results

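The unexposed transcriptome of whole zebrafish embryos at 96 h after fertilization was read from the 9 solvent control pools among 44 sequenced pools. The controls were chosen by their labels alone: 3 pools kept beside the embryos exposed to PFOS, 3 beside PFECHS and 3 beside FBSA, each of these being a perfluoroalkyl compound. Each control pool held 20 whole wild-type embryos kept in 0.1% DMSO, the solvent that the exposed pools carried too, at 26 °C from 24 to 96 h. The other 35 pools were exposed for the same 72 h to 1 of the compounds at 0.001, 0.1, 1 or 5 mg/L. No pool was kept without DMSO among those analysed here, so the solvent belongs to the baseline described.

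At this age a zebrafish has usually hatched, can swim and see, and still draws on its yolk. Fast-twitch fibres of the trunk make up much of the body, and the gut, liver and pancreas are starting to work. Messenger RNA of a whole animal therefore mixes every organ, and a gene used only in a small organ is diluted. In such bulk samples fewer cells of a type and less RNA per cell cannot be told apart.

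The control pools held between 25990818 and 35559684 counts, and levels are given in CPM, a gene's counts scaled to a fixed library total. A single count equalled 0.0281 to 0.0385 CPM. Of 25859 genes in the table, 21773 had counts in all 9 control pools and 17199 reached 1 CPM in each of them. Another 1075 genes were at 0 in all 9, and 453 of those had counts in at least 1 exposed pool. Gene symbols follow a name table, in capitals where it uses the human form, and symbols that hold a colon are placeholders and are counted but not named.

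FBSA control pools 1 and 2 stood apart from the other pools, and FBSA control pool 3 stood apart on a different axis. For this comparison 14664 genes were used whose log2 CPM, scaled with edgeR's TMM factors and averaged over the 9 pools, was at least 2. Between FBSA controls 1 and 3 1871 genes differed at least 2-fold, which is 12.8% of those genes and the highest share of the 36 pairs of pools. FBSA controls 1 and 2 differed from each other in 1.28% of the genes. The 15 pairs among the 6 PFOS and PFECHS controls lay between 0.0546% and 3.78%, with a median of 1.22%. The closest pair was PFOS control 2 and PFECHS control 2, which belong to different series, with 8 such genes. In a principal component analysis the first component held 51.2% of the variance, with FBSA controls 1 and 2 at 41.2 and 50.4 and the other 7 pools between -29.3 and 10.5. The second held 26.4% and separated FBSA controls 3 and 2, at 43.3 and 24.3, from the rest, at -18.6 to 4.7. FBSA controls 2 and 3 also had the highest totals, at 34663881 and 35559684 counts, against 27759721 in FBSA control 1, and the part of depth in these differences was not tested. For many of the values that rest on FBSA controls 1 and 2, though not for all, the value over the other 7 pools is given beside them.

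**Figure D1:**
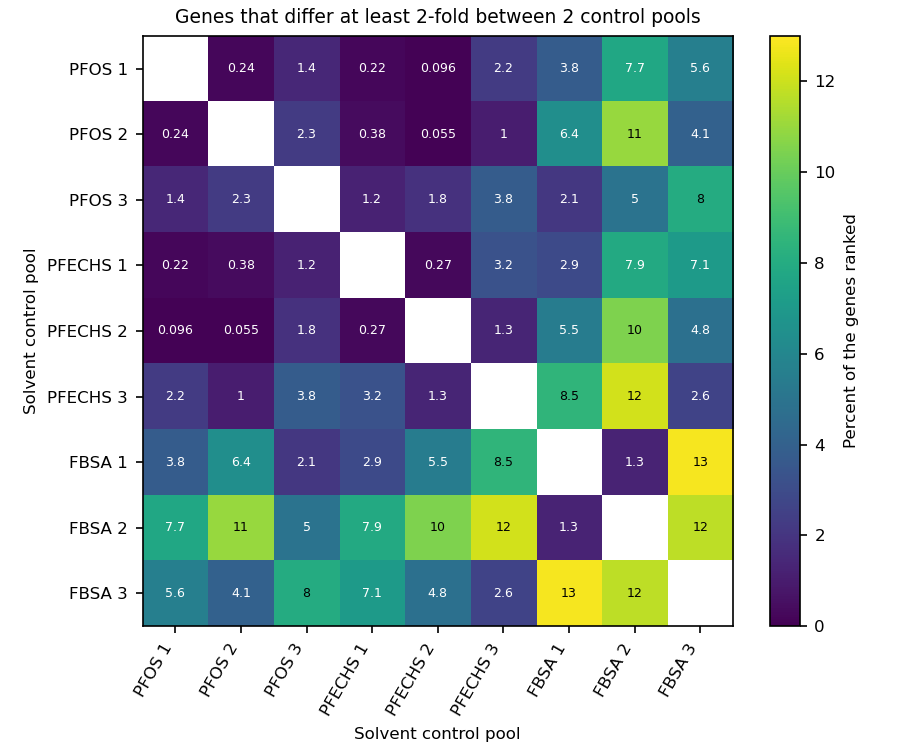
Each cell gives the percent of 14664 genes that differed at least 2-fold in normalised CPM between a pair of solvent control pools, with pools named by series and replicate on both axes. FBSA controls 1 and 2 differ in 1.28% of the genes, and FBSA controls 1 and 3 in 12.8%, the highest share, while the 6 PFOS and PFECHS controls lie within 3.78% of each other.

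Genes of muscle fibres and of the mitochondrial genome led the ranking of single genes by counts. On average 9.67% ± 1.3 (SD, n = 9 pools) of a pool's counts fell on 10 genes, 28.1% ± 2.33 on 100 genes and 57.8% ± 1.12 on 1000 genes. Counting from the top, 587 genes made up 50% of the counts. Of the 30 genes with the most counts, 14 belonged to the skeletal muscle list and 6 to the mitochondrial genome, 2 encode cytosolic ribosomal proteins, 2 are photoreceptor genes and 1 is an epidermal keratin. Gene lengths of the matching annotation were not used here, so these shares count reads and say nothing of transcripts per cell, since a longer transcript gives more reads.

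MT-CO1, the mitochondrially encoded first subunit of cytochrome c oxidase, held the largest share at 1.52% ± 0.15 of the counts. The other subunits of that enzyme made in the mitochondrion, MT-CO3 and MT-CO2, held 0.749% ± 0.115 and 0.665% ± 0.102. MT-CYB of respiratory complex III held 0.557% ± 0.0811 and MT-ATP6 of the ATP synthase 0.526% ± 0.0942. All 13 protein genes of the mitochondrial genome together held 5.03% ± 0.624, from 3.92% in FBSA control 3 to 5.93% in PFECHS control 1. The 3 FBSA controls, at 4.59%, 4.35% and 3.92%, were the lowest of the 9, below the 5.09% to 5.93% of the other pools.

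Among contractile genes, the alpha-actin gene actc1b held 1.3% ± 0.462 of the counts and the fast myosin heavy chain gene myhz1.1 held 1.08% ± 0.562. The calcium-buffering parvalbumins of fast muscle followed, with 1.05% ± 0.151 for pvalb1 and 0.784% ± 0.189 for pvalb2. The fast myosin light chain genes MYL11 (ENSDARG00000053254) and MYL1 held 1.01% ± 0.114 and 0.755% ± 0.0979, and the tropomyosin gene tpma 0.594% ± 0.2. Among the 30 most counted genes, those of myosin heavy chains differed more between pools than those of light chains. The share of myhz1.1 spanned 3.6-fold over the 9 pools, of myhz1.2 3.52-fold and of myhz2 4.46-fold, against 1.31-fold for MYL11 and 1.38-fold for MYL1. Over the 7 pools without FBSA controls 1 and 2 the spans were 1.6-fold for myhz1.1, 1.6-fold for myhz1.2 and 2.3-fold for myhz2. Those of MYL11 and MYL1 were 1.3-fold and 1.4-fold. The less counted MYL11 copy (ENSDARG00000002589) spanned 2.47-fold over the 9 pools and 2.3-fold over the 7. The myhz1 genes are near-identical neighbours, so how their reads were divided among them is uncertain. The calcium pump gene of the sarcoplasmic reticulum, atp2a1, spanned 3.28-fold (1.7-fold over the 7 pools), and the muscle creatine kinase genes ckmb and ckma spanned 2.48-fold and 2.22-fold. Of the troponin genes among the 30 most counted, TNNT3 spanned 2.1-fold and TNNC2 1.41-fold.

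Eye, skin and protein synthesis supplied most of the remaining genes at the top. OPN1SW (ENSDARG00000045677), an ultraviolet cone opsin, held 0.522% ± 0.116 of the counts. The keratin gene krt4 of the surface skin held 0.491% ± 0.125 and spanned 2.62-fold, with its lowest share in FBSA control 3. The elongation factor genes eef1a1l1 and eef2b held 0.758% ± 0.0422 and 0.32% ± 0.0274. The ADP/ATP carrier gene SLC25A5 held 0.328% ± 0.0179, the cytoplasmic actin gene actb2 0.305% ± 0.0231 and the chaperone gene HSP90AB1 0.275% ± 0.0168. Each of these 5 genes of general cell upkeep spanned under 1.3-fold over the pools. The ribosomal genes RPLP0 and RPS2 held 0.303% ± 0.0344 and 0.267% ± 0.0255, and MT-ND4 of respiratory complex I 0.293% ± 0.0285.

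**Figure D2:**
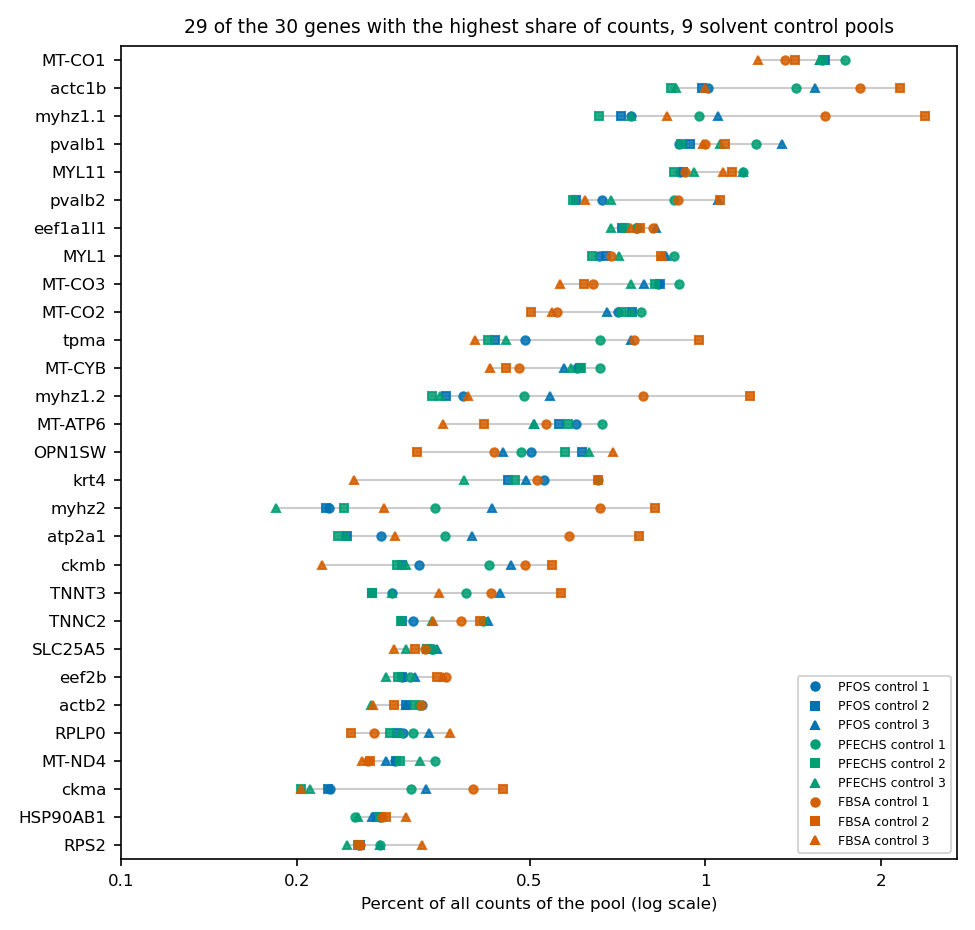
Share of all counts of a pool, in percent on a log scale, for 29 of the 30 genes with the most counts, with 1 point per solvent control pool. Colours give the series, marker shapes the replicate and grey lines the range over the 9 pools. Myosin heavy chain genes such as myhz2 spread over 4.46-fold with FBSA controls 1 and 2 at the top, while eef1a1l1 and SLC25A5 stay within 1.19-fold.

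Marker genes of 40 tissues and cell types were summed in each pool, together with 8 lists of cell processes. Skeletal muscle took by far the most counts of any tissue list, with 43 of 43 genes above 1 CPM in every pool. Its share was 8.58%, 8.31% and 12.5% in the PFOS controls, 11.5%, 7.95% and 8.6% in the PFECHS controls and 13.5%, 16.9% and 8.92% in the FBSA controls. FBSA controls 1 and 2 were the highest, and the third FBSA pool lay among the other series. The mean was 10.8% ± 3.07 over 9 pools and 9.48% ± 1.77 over the 7 without FBSA controls 1 and 2.

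The retina and lens came next. Photoreceptor genes held 2.36% ± 0.516 of the counts, from 1.53% in FBSA control 2 to 3.16% in FBSA control 3. Beside the cone opsin, the cone arrestin gene ARR3 averaged 1620 CPM ± 356. Crystallins and other lens genes held 1.42% ± 0.356, led by CRYBB1 at 1160 CPM ± 261, crybb1l1 at 833 CPM ± 400 and crygm2d10 at 809 CPM ± 121. Without FBSA controls 1 and 2 crybb1l1 averaged 667 CPM ± 177. Retinal pigment epithelium genes held 0.0573% ± 0.0141, with the retinoid isomerase gene RPE65 at 209 CPM ± 66.7. Crystallin genes form a large family of close copies, so reads may be shared among them.

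Neuronal genes held 0.836% ± 0.114 and all 38 of them passed 1 CPM in every pool. The neuronal sodium pump gene atp1a3a averaged 914 CPM ± 139, the synaptic vesicle calcium sensor SYT1 752 CPM ± 151 and the tubulin-binding STMN1 686 CPM ± 163. Radial glia and astroglia genes held 0.374% ± 0.0564, with the glutamate transporter SLC1A2 at 1190 CPM ± 184 and the fatty acid binding protein FABP7 at 879 CPM ± 236. Myelin genes held 0.0313% ± 0.00357, with mbpa at 41.8 CPM ± 8.49. The neuron and radial glia lists had their lowest share in FBSA control 2, and the myelin list in FBSA control 3. Hair cell genes of the ear and lateral line held 0.0349% ± 0.00289 and spanned only 1.25-fold, the narrowest range among the 40 lists.

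Epidermal genes held 1.3% ± 0.307, led by krt4, cyt1 at 2240 CPM ± 517 and krt5 at 1170 CPM ± 422. The basal keratin gene krt5 was at 274 CPM in FBSA control 3 and between 844 and 1670 CPM in the other 8 pools. Fin fold genes held 0.315% ± 0.103 (0.272% ± 0.0647 over the 7 pools without FBSA controls 1 and 2) and cartilage genes 0.332% ± 0.0944 (0.292% ± 0.0586). The fibrillar collagen genes col1a1a and COL2A1 (the more counted of its copies) averaged 1030 CPM ± 366 and 1170 CPM ± 318. The actinodin gene and2, whose protein builds the first fibres of the fin fold, was at 20.5 and 18.6 normalised CPM in PFECHS control 3 and FBSA control 3 and at 61.6 to 143 in the other 7 pools.

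Digestive organs held small shares that differed widely between pools. Liver genes held 0.092%, 0.091% and 0.163% in the PFOS controls, 0.108%, 0.0973% and 0.0628% in the PFECHS controls and 0.19%, 0.247% and 0.0589% in the FBSA controls. Intestinal genes held 0.0913%, 0.0811% and 0.111%, then 0.115%, 0.0793% and 0.0563%, then 0.198%, 0.2% and 0.0606% in the same order. Exocrine pancreas genes held 0.0446%, 0.0357% and 0.0647%, then 0.044%, 0.0372% and 0.0207%, then 0.0746%, 0.126% and 0.0336%. In each of these 3 lists FBSA controls 1 and 2 were the 2 highest pools, and PFECHS control 3 and FBSA control 3 the 2 lowest. The coefficients of variation over the 9 pools were 51.3%, 48.9% and 59.4%. Without FBSA controls 1 and 2 the mean shares were 0.0961% ± 0.0345 for liver, 0.0849% ± 0.0227 for intestine and 0.0401% ± 0.0135 for exocrine pancreas (SD, n = 7).

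Named genes of the gut and pancreas also had FBSA controls 1 and 2 at the top. The intestinal fatty acid binding protein FABP2 averaged 147 CPM ± 57.9 and the brush border protein VIL1 117 CPM ± 74.9, and both were highest in these 2 pools. Over the other 7 pools they averaged 123 CPM ± 38.0 and 80.5 CPM ± 20.8. The trypsin gene prss1 was at 65.3, 56.5 and 94.9 CPM in the PFOS controls, 61.8, 48.9 and 28.1 CPM in the PFECHS controls and 107, 179 and 52.6 CPM in the FBSA controls. Liver fatty acid binding protein, fabp10a, averaged 39.0 CPM ± 21.7, and the egg yolk precursor vtg1, which the liver of mature females makes, 0.0277 CPM ± 0.0505. Apolipoprotein genes of the yolk syncytial list were counted more, with apoa1b at 509 CPM ± 328 and apoeb at 203 CPM ± 32.0. The count of apoa1b was 1210 CPM in FBSA control 2 against 226 to 772 CPM in the other 8, and averaged 378 CPM ± 182 without FBSA controls 1 and 2.

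Blood, immune and vascular genes held small shares as well. Red blood cell genes held 0.146% ± 0.0186. The 5 embryonic alpha globin genes (hbae) summed to 583 CPM ± 127, whereas the 2 adult alpha globin genes (hbaa) summed to 0.0354 CPM ± 0.0568 and were at 0 in the lowest pool. A count of 0 allows up to 3 counts, which in these pools is 0.0844 to 0.115 CPM, a limit that covers counting error only. The 7 genes the name table calls HBE1 summed to 736 CPM ± 67.3, and this name does not tell embryonic from adult beta globins. Macrophage and microglia genes held 0.0272% ± 0.00482, neutrophil genes 0.0051% ± 0.00174 with the lysozyme gene lyz at 14.1 CPM ± 7.71, and endothelial genes 0.0178% ± 0.00245 with cdh5, the vascular cadherin, at 35.4 CPM ± 3.11. Without FBSA controls 1 and 2 lyz averaged 10.5 CPM ± 3.38.

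Hormone-producing glands lay near the lower end. Of the 12 pituitary genes none reached 1 CPM in all 9 pools, the highest being growth hormone, gh1, at 1.99 CPM ± 1.05 and POMC at 1.73 CPM ± 0.743. The insulin gene ins averaged 3.59 CPM ± 2.52, from 1.39 CPM in PFOS control 2 to 9.64 CPM in FBSA control 2. Without FBSA controls 1 and 2 it averaged 2.52 CPM ± 0.853. The endocrine pancreas list held 0.0798% ± 0.017, but its 3 most counted members, NEUROD1, PAX6 and ISL1, are used by retina and brain as well. The interrenal enzyme cyp11c1, which makes cortisol, averaged 13.5 CPM ± 5.36 and the thyroglobulin gene TG 1.96 CPM ± 1.49. Germ cell and egg coat genes were at the bottom, at 0.000424% ± 8.02e-05 and 0.000537% ± 0.000151, with none of their 11 and 15 genes above 1 CPM in all pools.

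Pigment and heart lists need a word on their members. Melanophore genes held 0.0938% ± 0.0125, with the pigment enzyme gene TYRP1 at 305 CPM ± 33.3 and pmela, of the pigment granule's fibres, at 208 CPM ± 34.9. The heart muscle list held 0.273% ± 0.0987 (0.229% ± 0.0373 without FBSA controls 1 and 2), mostly from the 2 titin genes (TTN) at 1300 CPM ± 454 and 1290 CPM ± 486, which skeletal muscle uses too. The cardiac myosin gene MYH6 averaged 68.3 CPM ± 20.4 in its more counted copy. The hatching gland list was led by the broadly used genes XBP1 and CD63, while its enzyme genes he1.1 and he1.2 averaged 1.3 CPM ± 2.23 and 0.462 CPM ± 1.08, with FBSA control 2 highest at 7.15 and 3.32 CPM.

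Across the 40 tissue lists, 23 had FBSA controls 1 and 2 as their 2 highest pools and 11 had PFECHS control 3 and FBSA control 3 as their 2 lowest. FBSA control 2 was instead the lowest pool for the photoreceptor, neuron, radial glia, pineal and hypothalamic peptide lists, among others. The mean share of a tissue list over 9 pools was between 0.909 and 1.34 times its mean over the 7 pools without FBSA controls 1 and 2. Lists share some genes and the shares of a pool sum to a whole, so these counts are not independent of one another. Of the 8 lists of cell processes, cytosolic ribosomal proteins held 7.31% ± 0.842, the highest being 9.06% in FBSA control 3, and the cell cycle list 0.196% ± 0.0144.

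**Figure D3:**
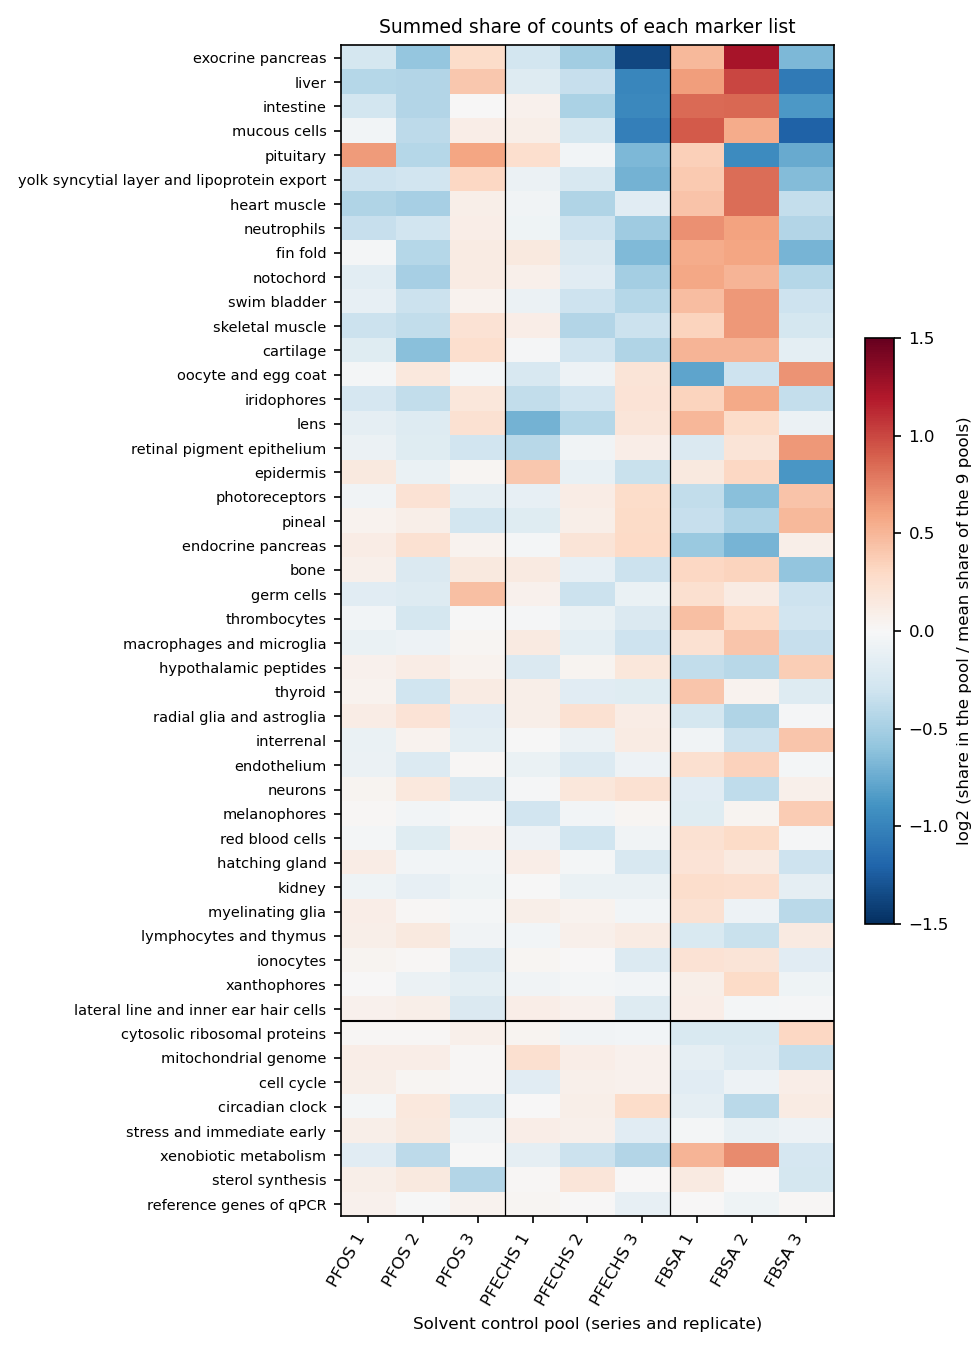
Summed share of counts of each marker list in each solvent control pool, as log2 of the share over the mean of the 9 pools. Tissue lists are ordered by their coefficient of variation and the 8 lists of cell processes stand below the black line. For liver, intestine and exocrine pancreas the deepest red cells sit in FBSA controls 1 and 2. The deepest blue cells of these lists sit in PFECHS control 3 and FBSA control 3.

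The spread of single genes between control pools was small for most and large for a few. The median SD of log2 CPM (prior count 2) over the 9 pools was 0.242 among the 14664 genes, with 107 genes at 1 or above and 640 below 0.1. Over the 6 PFOS and PFECHS controls alone the median was 0.146. Within a series it was 0.136 for the PFOS controls, 0.13 for the PFECHS controls and 0.267 for the FBSA controls.

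The 100 genes with the largest SD over the 9 control pools are described without a test, since they were chosen for that spread. FBSA controls 1 and 2 were the 2 highest pools for 61 of them, against 2375 of all 14664 genes, and FBSA control 3 was the lowest for 46, against 2959 of all. Of these 100, 74 had a mean log2 CPM between 2 and 4, the lowest of 4 bands, against 6190 of all 14664 genes. The exposed pools did not enter the ranking, and their spread was measured within dose groups, without differences between series. All 100 genes were among the 10% with the largest spread within exposed groups, also when the FBSA exposed pools were left out.

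Most ranked genes of the exocrine pancreas, intestine and liver lists were near the variable end. Among the 1000 most variable genes, which are 6.82% of those ranked, stood 18 of 20 ranked exocrine pancreas genes, 23 of 28 intestinal genes and 21 of 26 liver genes. Epidermis had 16 of 26, xenobiotic metabolism 11 of 21 and skeletal muscle 15 of 43. Ranking over the 6 PFOS and PFECHS controls instead gave 19, 20, 23, 14, 8 and 11 in the same order, and 666 of the 1000 genes were shared. Lens genes had 6 of 40 in the first ranking and 19 of 40 in the second. No gene of the neuron, retinal pigment epithelium, radial glia or cytosolic ribosomal protein lists (36, 8, 14 and 77 ranked) stood among the 1000 in either ranking. For lists as short as 8 or 14 genes this is close to what the share of 6.82% would give. Other short lists, among them iridophores, pineal and endocrine pancreas, also had no gene there in either ranking.

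The sodium-glucose transporter SLC5A1 and the peptide transporter SLC15A1 take up nutrients at the gut surface. SLC5A1 was at 23.9, 22.7 and 1.73 normalised CPM in FBSA controls 1, 2 and 3, with 7.81 and 4.16 in PFOS controls 1 and 2 and 6.7, 5.39 and 2.46 in the PFECHS controls. PFOS control 3 was next below FBSA controls 1 and 2. For SLC15A1 the FBSA controls were at 27.6, 21.8 and 3.14, the PFOS controls at 7.58, 4.06 and 8.17 and the PFECHS controls at 4.78, 3.51 and 2.1. Both genes thus had FBSA controls 1 and 2 at the top and were 13.8-fold and 13.2-fold higher in their highest than in their lowest pool, or 5.9-fold and 3.9-fold without these 2 pools. The glutathione transferase gene gstp1.1 (18.1-fold), the carboxylesterase gene ces2b (14.1-fold), the diamine oxidase gene AOC1 (11.7-fold) and the ceramidase gene ASAH2 (12.9-fold) also had FBSA controls 1 and 2 as their 2 highest pools. Without these pools gstp1.1 spanned 5-fold, ces2b 2.1-fold, AOC1 4.4-fold and ASAH2 5.4-fold. For ces2b the SD was 1.4 over 9 pools and 0.44 over the 6 PFOS and PFECHS controls, which put it at place 10 and at place 656 of the 2 rankings. For ASAH2 it was 1.25 and 0.89, and its place 30 and 29.

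Some muscle genes and a pair of collagen genes were also highest in FBSA controls 1 and 2. MYOM1, a protein of the sarcomere's M-band, was at 146, 180 and 16.4 normalised CPM in the FBSA controls and between 15.5 and 40.2 in the other 6. The fast myosin heavy chain gene myha was at 18.1, 32.0 and 3.6, against 2.1 to 4.58 in the other series. The fast troponin inhibitory subunit TNNI2 (ENSDARG00000045592) was at 19.1, 19.7 and 2.17, against 1.32 to 6.97. COL4A1 and COL4A2, the paired chains of basement membrane collagen, were at 19.3, 30.5 and 4.62 and at 18.3, 32.0 and 6.41. In the PFOS and PFECHS controls they lay between 2.37 and 5.78. Over those 6 pools the SD of MYOM1, myha, COL4A1 and COL4A2 was 0.52, 0.42, 0.45 and 0.44, so their rank rested on FBSA controls 1 and 2. The actin gene actc1c, named after its values were seen, was lowest in those pools, at 5.83 and 22.2, against 41.7 to 67.5 in the other 7.

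Of the 33 ranked stress and immediate early genes, 7 stood among the 1000 most variable genes, and the summed share of the list spanned only 1.24-fold. The immediate early genes NPAS4 and FOS, of the kind that cells switch on within minutes of a stimulus, stood among the 30 most variable. NPAS4, a transcription factor tied to neuronal firing, was at 55.7, 64.0 and 51.1 normalised CPM in the PFOS controls, 66.2, 55.5 and 11.2 in the PFECHS controls and 35, 5.13 and 9.69 in the FBSA controls. FOS was at 33.1, 35.5 and 20.2, then 34.9, 30 and 4.93, then 15.0, 4.38 and 5.15. PFECHS control 3 and FBSA controls 2 and 3 were the 3 lowest pools for both. In CPM, egr1 was at 78.3, 48.5 and 65.2 in those pools and at 102 to 165 in the other 6. FOSB was instead lowest in PFOS control 3, at 0.406 CPM, and JUN ran only from 61.0 to 84.8 CPM. In the 35 exposed pools NPAS4 ran from 6.69 to 117 normalised CPM with a median of 26.2, and 4 of them were at or above the highest control. The neuroendocrine chaperone gene SCG5 was also low in PFECHS control 3, at 1.66, and in FBSA controls 1, 2 and 3, at 1.97, 3.12 and 6.25, against 10.7 to 23.4 in the other 5 pools.

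Some of the most variable genes turned on 1 or 2 pools. RNF14 (ENSDARG00000104631), named for a ubiquitin ligase, was listed at 0 in PFECHS control 3, where 3 counts are 0.11 normalised CPM, and at 1.93 to 11.4 in the other 8. None of the 35 exposed pools was at 0 for it. The most variable gene of all has no symbol (ENSDARG00000112405) and was at 0 in PFECHS control 1 and FBSA control 3 and between 6.4 and 34.8 in the other 7. Among the exposed pools 2 were at 0 for this gene and the highest stood at 82.6. The kelch-like gene klhl43 spanned 24.5-fold (3.1-fold without FBSA controls 1 and 2), with FBSA controls 1 and 2 at 36.3 and 56.6 and the other 7 pools between 2.31 and 7.24. The fucosyltransferase gene fut9d was at 1.43 in FBSA control 3 and at 9.01 to 28.7 elsewhere.

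Spread within series, with differences between series set aside, ranked many of the same genes near the top in another order. ALPP (ENSDARG00000053774), named for an alkaline phosphatase, had a pooled within-series SD of 1.42 while the series means held 0.362% of its variance. Its FBSA controls were at 13.5, 6.79 and 0.771 normalised CPM. The phosphatase gene DUSP23 had a within-series SD of 1.4 and tmem86b, a membrane protein gene, also 1.4, with series means holding 6.68% and 1.7%. By contrast the series means held 78% of the variance of COL4A2. SLC25A1, the mitochondrial citrate carrier, had a within-series SD of 1.34 and an SD over the 9 pools of 1.35.

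**Figure D4:**
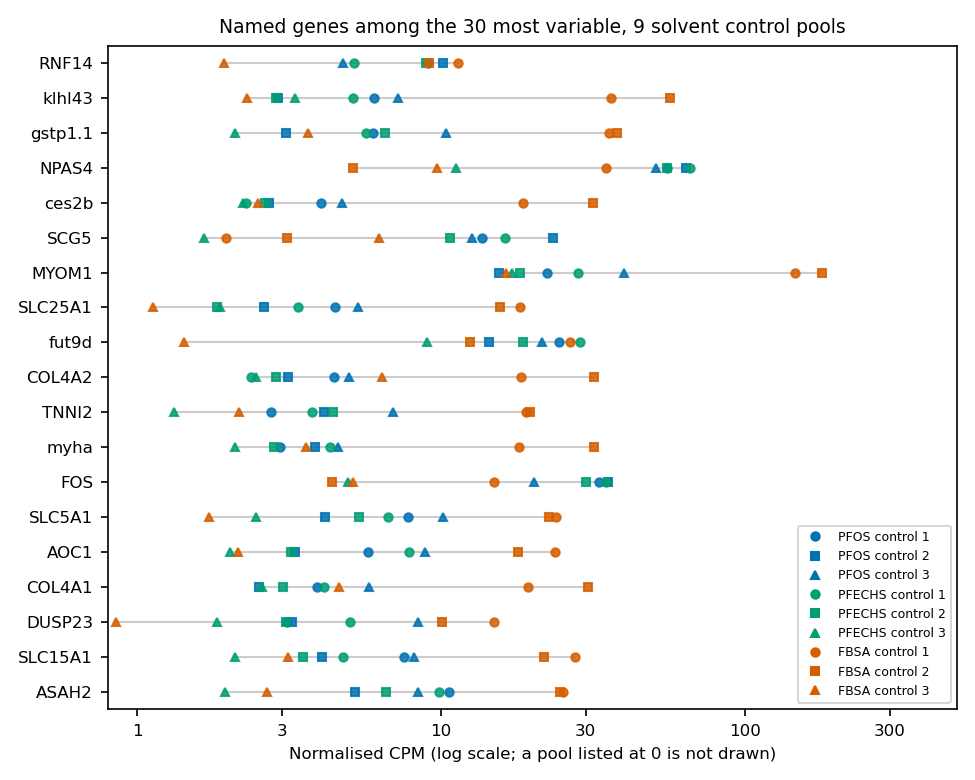
Normalised CPM, on a log scale, of the named genes among the 30 with the largest SD over the 9 solvent control pools. Colours give the series, marker shapes the replicate and grey lines the range of the pools above 0. FBSA controls 1 and 2 lie at the right for klhl43, MYOM1 and the collagen and transporter genes, while NPAS4 and FOS are lowest in FBSA controls 2 and 3 and PFECHS control 3.

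At the other end, the 15 least variable genes with a mean log2 CPM of at least 6 had an SD of 0.04 or 0.05. HSPA4, a chaperone of the Hsp110 family, lay between 107 and 116 normalised CPM in all 9 pools. POLR2A, the largest subunit of RNA polymerase II, lay between 195 and 215, and the casein kinase gene CSNK1A1 between 156 and 168. UPF1, the helicase of nonsense-mediated decay, lay between 137 and 151 and the kinase gene DYRK1B between 126 and 138. The other 10 were GPBP1L1, EDF1, OLA1, PRKAR2A, PSME4, PAM, SLMAP, MCM5, NUTF2 and UBQLN4. None of these 15 spanned more than 1.13-fold over the pools. For the exposed pools, which the choice did not use, percentiles of within-group SD were taken among all 14664 ranked genes. Those of the 15 genes lay between 0.0955 (PRKAR2A) and 16.2 (POLR2A). The wider set includes genes of lower level, so part of a low percentile may come with level. Over the 9 control pools the median SD was 0.285 for a mean log2 CPM of 2 to 4. It was 0.2 for 6 to 8 and 0.238 for 8 or above.

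The genes that qPCR work in zebrafish uses as references were not chosen by their spread. The smallest spread over the 9 control pools was that of eef1a1l1, with an SD of 0.1 in log2 CPM and a 1.23-fold range, followed by ppiaa at 0.12 and by actb1, actb2 and lsm12b at 0.13 each. SDHA and ywhaz stood at 0.15, ppiab at 0.17, RPLP0 at 0.18 and ubc at 0.19. TBP, RPS18 and tuba1b followed at 0.2, MOB4 at 0.21 and GAPDHS, the second glyceraldehyde phosphate dehydrogenase gene, at 0.22. EEF1A1 stood at 0.22 and 0.18 in its copies ENSDARG00000039502 and ENSDARG00000069951. Less even were b2m at 0.3, RPL13A and HPRT1 at 0.32, UBE2A at 0.33 and TMEM50A at 0.36, and b2m averaged only 1.85 normalised CPM. GAPDH was the least even of the 23, with an SD of 0.45, a coefficient of variation of 33.7% and a 2.37-fold range (1.6-fold without FBSA controls 1 and 2). It was at 711, 600.0 and 945 normalised CPM in the PFOS controls, 904, 583 and 578 in the PFECHS controls and 1120, 1370 and 642 in the FBSA controls. FBSA controls 2 and 1, then PFOS control 3 and PFECHS control 1, were the highest pools for GAPDH and for the skeletal muscle list alike. Among genes with a mean log2 CPM of at least 6, GAPDH stood at the 93.8 percentile of spread and eef1a1l1 at the 7.99 percentile. For the exposed pools, percentiles of within-group spread were taken among all 14664 ranked genes, a wider set. They cannot be set against the control percentiles above. There ywhaz stood at the 0.45 percentile, TBP at 1.68, ppiaa at 1.96 and MOB4 at 2.51, below POLR2A and several others of the 15. By the same measure eef1a1l1 stood at 18.4 and GAPDH at 73.2.

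**Figure D5:**
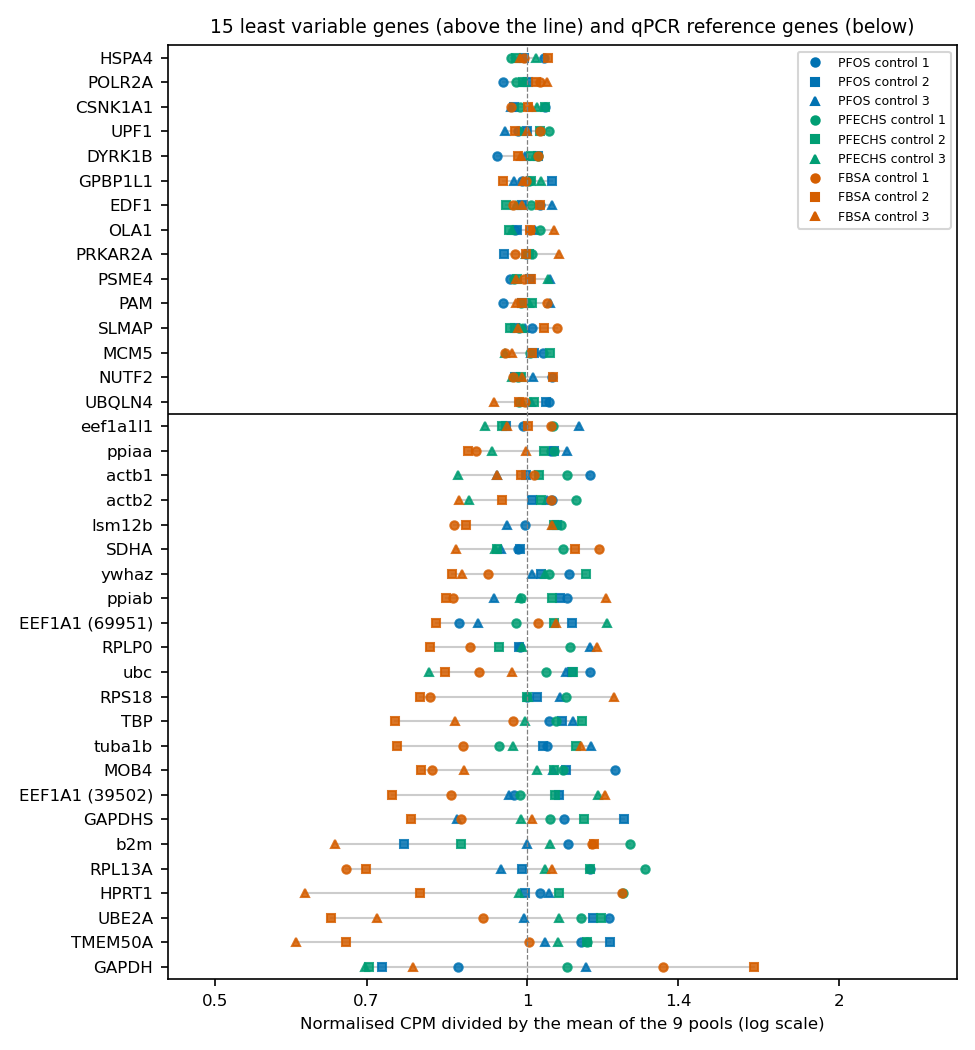
Normalised CPM divided by the gene's mean over the 9 solvent control pools, on a log scale, for the 15 least variable genes above the line and 23 qPCR reference genes below it. Colours give the series and marker shapes the replicate. The 15 genes keep within 1.13-fold from lowest to highest pool, and GAPDH spans 2.37-fold.

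Whether the control pools of the 3 series differed as groups was tested with edgeR's quasi-likelihood F test in 1 fit over all 44 pools, with Benjamini-Hochberg adjustment over 22703 genes and a threshold of 0.05. The labels do not say whether the pools of a series came from separate clutches. A p-value here reflects only the spread within the 15 groups of all 44 pools, exposed pools included, which may be technical. PFECHS and PFOS controls differed in 0 genes (0% of those tested, 229 at an unadjusted p under 0.05), and DESeq2 called 1. FBSA and PFECHS controls also differed in 0 genes by edgeR, with 5185 at an unadjusted p under 0.05, while DESeq2 called 1317. FBSA and PFOS controls differed in 34 genes, 0.150% of those tested, with 17 higher (0.0749%) and 17 lower (0.0749%) in the FBSA controls and 14 of the 34 changed at least 2-fold. A joint test of the 3 series called 20 genes (0.0881%). In simulated counts, the fit of FBSA against PFOS controls recovered 4 of 67 genes changed 1.5-fold and 31 of 67 changed 2-fold. Of 66 genes changed 4-fold it recovered 64. Among the 22305 genes run, 4 unchanged genes were called. The simulation gave a gene the same spread in every series. In the real pools the median SD was 0.267 within the FBSA controls and 0.136 within the PFOS controls. Recovery in the real pools may therefore be lower, also for 4-fold changes. Whether the unequal spread also adds false calls was not tested, so the calls themselves may be affected. Calls of 0 genes do not show that the series are alike, since most changes under 2-fold would be missed and larger ones may be.

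Of the genes higher in FBSA than in PFOS controls, ANKRD11, a chromatin-associated regulator, was at 47.0, 82.7 and 60.4 normalised CPM in the FBSA controls and 29.8, 31.6 and 27 in the PFOS controls. Its log2 fold change was 1.1 with an SE of 0.21 and an adjusted p of 0.0374. The proline dehydrogenase gene prodha was at 22.3, 38.2 and 18.6 against 10.5, 11.2 and 12.4, a log2 fold change of 1.22 (SE 0.25, adjusted p = 0.0399). COLGALT1, which adds galactose to collagen, was at 17.7, 27.0 and 20.7 against 9.29, 11.8 and 10.6, a change of 1.05 (SE 0.21, adjusted p = 0.0399). That these genes show no overlap between FBSA and PFOS pools follows from how they were chosen. Of the named genes higher in FBSA controls, those with lower counts rose too: fam83ga by 2.02, the chaperone gene CLPB by 1.57, the mitochondrial carrier gene SLC25A42 by 1.49, vwa7 by 1.02 and aifm5 by 0.9 on the log2 scale.

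Among genes lower in FBSA than in PFOS controls, DR1, a general repressor of transcription initiation, was at 38.5, 30.8 and 31.4 in the FBSA controls against 62.8, 62.3 and 54.2 in the PFOS controls, a log2 fold change of -0.83 (SE 0.17, adjusted p = 0.0399). POLR2C, a subunit of RNA polymerase II, was at 21.9, 19.6 and 19.2 against 33.5, 31.2 and 28.4, a change of -0.62 (SE 0.13, adjusted p = 0.045). DNAL4, a dynein light chain gene, fell by 1.23, the kelch repeat gene krcp by 0.71, AKIRIN1 by 0.63, the nucleotide synthesis gene prps1b by 0.62, ccdc71 by 0.61 and lmo4a by 0.55. Every PFECHS control lay above every FBSA control for these genes, for instance at 54.1, 60.1 and 61.9 for DR1. Of the named genes higher in FBSA controls, fam83ga, SLC25A42, prodha, COLGALT1 and vwa7 had every PFECHS control below every FBSA control. ANKRD11, CLPB and aifm5 did not. PFECHS control 3 was at 48.9 for ANKRD11 and 4.12 for CLPB, above FBSA control 1 at 47.0 and 2.68. For aifm5 it was at 5.33, above FBSA control 3 at 4.21. All these genes were chosen because their FBSA pools do not overlap the PFOS pools, and the same FBSA values enter the comparison with PFECHS. The share of all genes without overlap between FBSA and PFECHS controls was not computed. The PFECHS values are therefore a description and no separate support for the calls. That the FBSA controls differ from one series and not from the other is not shown by these calls.

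Among all members of the 48 lists, 1 gene was called higher and 1 lower in FBSA than in PFOS controls (0.0749% of all genes tested in each direction), and none in the other contrasts. The red blood cell transcription factor klf1 was at 1.15, 0.894 and 0.562 CPM in the FBSA controls (adjusted p = 0.0399). In the PFOS controls it was at 0.0994, 0.095 and 0.148 CPM, where 3 counts make 0.095 to 0.111 CPM. Over the 7 pools without FBSA controls 1 and 2 klf1 averaged 0.315 CPM ± 0.268 and spanned 8.4-fold. At these values a PFECHS control lay above FBSA control 3. The reference gene MOB4 was at 57.2, 55.9 and 61.5 normalised CPM against 85.9, 77.0 and 74.9, a log2 fold change of -0.45 (SE 0.09, adjusted p = 0.0399). For intestinal genes the median log2 fold change was 0.73 and 38 of 39 were above 0, with 0 called, beside a median of 0.0304 over all genes tested. For liver, exocrine pancreas and skeletal muscle genes the medians were 0.66, 0.73 and 0.31, again with 0 called. As described above, FBSA controls 1 and 2 carried the high values of these lists and FBSA control 3 did not.

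The 34 calls rested on which pools were counted. Without FBSA control 2 there were 0 calls, without FBSA control 1 there were 271 and without FBSA control 3 there were 84, while leaving out PFOS control 1, 2 or 3 gave 1, 0 or 0. With the 9 control pools fitted alone the count was 0, and with DESeq2 it was 597. Between FBSA and PFECHS controls the count of 0 became 511 without FBSA control 1 and 1653 without FBSA control 3. The 20 genes of the joint test became 1, 0 and 0 without PFOS control 1, 2 or 3 and 0, 0 and 90 without PFECHS control 1, 2 or 3. They became 156, 0 and 412 without FBSA control 1, 2 or 3.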

How the data were processed

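RNA sequencing of pooled whole embryos was analysed from 1 table of 44 libraries. The authors deposited estimated counts (expected counts per Ensembl gene), made before deposit by a program that no label or header names. The unit was read from the values, of which 54.1% to 79.8% per library are not whole. Per the submitters' processing notes, FastQC, MultiQC and Trimmomatic were used. For the aligner, the counter and the build, the answer is: not given in the sources used here. The table spells the FBSA columns FSBA.

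Values were rounded to whole counts, and 1 row with no identifier was left out. Shares and CPM are of the deposited total of a library, and normalised CPM uses TMM factors. Genes were filtered with filterByExpr by group and tested with edgeR 4.0.16 in R 4.3.3 (15 groups, 29 residual degrees of freedom, common dispersion 0.068), and DESeq2 1.42.0 was the alternative. The calculation was tested on simulated data. Pairs of control libraries, within or between series, differed by more than sampling noise (chi-square per degree of freedom 5.84 to 260), so none was merged.

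Symbols were found for 23598 identifiers and 3440 share theirs. Of 962 listed symbols, 726 matched directly and 92 through older names that RefSeq lists for GRCz12tu (no coordinates used). Dropping the suffix that marks a gene copy matched 94, and 50 stayed unmatched. Members, lists and tests were chosen with earlier results of these data known. Named genes are the 30 with the most counts, the 30 with the largest SD (15 within series), the 15 with the smallest, up to 8 called per direction without overlap and mean log2 CPM of at least 1, per list the 3 most counted, the 3 most variable and those called, and all qPCR reference genes; of these the text gives a part, and fabp10a, vtg1, JUN and actc1c were added after their values were seen. Some results on withheld items are not reported here. Alternatives were another normalization, tool, filter, prior count and set of libraries.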

Additional observations from a re-analysis of the deposited data

Results flagged for a closer look

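For 190 values over the 9 control pools (the 48 list shares, the library totals, the 30 most counted genes, the named genes among the 100 most variable, the qPCR reference genes and the 15 least variable genes), the highest or lowest pool was compared with its nearest neighbour. In 9 of them this gap, divided by the whole range, exceeded the 95% critical value of Dixon's test for 9 samples. Chance alone flags about 1 in 20 such groups. The count of 9 in 190 cannot be judged against that share, since pools that stand high together mask each other in this test. The same pair of FBSA controls stood highest for 61 of the 100 most variable genes. MYOM1, at 146 and 180 normalised CPM in that pair and at most 40.2 in the other pools, was not flagged. Some of the values are genes chosen for a large or small SD over these same pools, and for them the rate of 1 in 20 need not hold. The cases below are therefore a description.

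In 3 cases FBSA control 3 stood high. Retinal pigment epithelium genes held 0.0902% of its counts against a median of 0.0538%, melanophore genes 0.122% against 0.0932%, and the ribosomal gene RPS2 0.328% against 0.256%. FBSA control 2 stood high in 5 cases. Xanthophore genes held 0.0436% of its counts against a median of 0.0346%. In normalised CPM, the muscle gene XIRP2 was at 67.2 against 8.93, the lipid-carrying apolipoprotein gene APOB (ENSDARG00000042780) at 39.1 against 6.08, the trypsin-like gene prss59.1 at 86.7 against 18.5 and the gene prx at 165 against 28.7. The kinase gene DYRK1B, among the least variable genes, was at 126 in PFOS control 1 against a median of 136.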

How the results depend on the processing

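Depth limits genes of low count, where 3 counts are 0.0844 to 0.115 CPM. No gene length was used, so the planned ranking by counts per kilobase was not run. With RLE size factors the FBSA against PFOS count was 40 and that of the joint test 39. Without a filter they were 23 and 14. With genes of mean log2 CPM of at least 1 they were 134 and 289, and FBSA against PFECHS gave 403. With the 9 controls alone, and without FBSA controls 1 and 2, FBSA against PFOS and the joint test gave 0. DESeq2 gave 597 for FBSA against PFOS, 1317 for FBSA against PFECHS, 975 for the joint test and 1 for PFECHS against PFOS.

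Leaving out 1 control pool at a time gave 0 to 271 genes for FBSA against PFOS, 0 to 1653 for FBSA against PFECHS, 0 to 412 for the joint test and 0 to 0 for PFECHS against PFOS. It gave 27.6% to 28.4% of counts in the 100 most counted genes, a median SD of 0.211 to 0.25 and 67 to 95 of the 100 most variable genes shared. Without FBSA controls 1 and 2 the median SD was 0.185 and 42 of the 100 genes were shared.

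Some alternatives were chosen after seeing the data. FBSA controls 2 and 3 stand out of order among the last 11 columns of the table. With a term for those columns FBSA against PFOS and the joint test gave 0. Without those pools FBSA against PFOS, FBSA against PFECHS and the joint test gave 1 each. Over the 6 PFOS and PFECHS controls the median SD was 0.145 (genes filtered anew) and 47 of the 100 genes were shared. The cause of these changes was not tested.

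Same-numbered controls of different series correlated between -0.274 and 0.394 in their deviations from the group means, so the numbers were not taken as pairs. With the replicate number as a block, FBSA against PFOS gave 31 and the joint test 0. All 16 genes named from FBSA against PFOS kept their direction in every alternative. They were chosen with no overlap between FBSA and PFOS pools, so leaving out a pool could hardly reverse them. The kept direction is therefore no separate support. All 16 stayed called with DESeq2, with RLE factors, with genes of mean log2 CPM of at least 1 and without FBSA control 1. The same held without PFECHS control 2 or 3. With the replicate block, and without PFECHS control 1, 14 stayed called. Without a filter 10 did, and without FBSA control 3 only 8. None stayed called in the 9-pool fit, with the term for the last 11 columns or without FBSA control 2. Nor did any without PFOS control 1, 2 or 3.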
